A study of Arabidopsis thaliana with 4 samples.

Results

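A group of 6 genes that are known to respond to low oxygen in roots were followed in Arabidopsis seedlings grown beside the root-colonizing fungus P. indica: AT1G19530, AT4G39675, AT1G33055, the calmodulin-like gene CML38 (AT1G76650), the pyruvate decarboxylase gene PDC2 (AT5G54960) and the lactate dehydrogenase gene AT4G17260. They were picked by name, and each has 1 probe set that the platform annotation gives to a single gene, out of 13333 genes with such a probe set and 22746 probe sets in all. The choice was made with the signals of all 4 arrays known, so every value of these genes below is a description and carries no test. Roots of wild-type Columbia seedlings were exposed for 6 d or for 2 d to an agar plug with P. indica mycelium or to a plug without mycelium (mock). The arrays were P. indica 6 d and mock 6 d, with a labelled age of 16 d, and P. indica 2 d and mock 2 d, with a labelled age of 12 d. Hyphae and roots had met by the later time point and were still apart at the earlier one, as described in the study. Each of the 4 conditions has 1 array, so no spread between replicates can be given. The study speaks of several independent experiments, and the sources used here do not say if these were pooled.

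When oxygen runs short, root cells turn from respiration to fermentation. Pyruvate decarboxylase and alcohol dehydrogenase lead to ethanol, lactate dehydrogenase leads to lactate, and both routes return the NAD+ that glycolysis needs. Ethylene response factors of group VII, which are broken down while oxygen is present, switch on a core set of genes that includes fermentation enzymes and many small proteins of unknown function. CML38 belongs to this set and is a Ca2+ sensor that also responds to wounding. The functions of the products of AT1G19530, AT4G39675 and AT1G33055 are not named in the annotation used here.

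The values are MAS5 signals of ATH1 arrays, where short probes grouped into probe sets report the transcript of a gene. A floor of 22.2, the mean of the 40th percentiles of the arrays, was set under all signals, and a ratio with an array under the floor is written as "at least". All 6 genes had a signal above the floor on at least 1 array, and 5 of them on all 4. CML38 was the exception. The labels give root as the tissue, while roots and shoots are both named in their RNA protocol, and their description field names embryos, which fits neither. The 18 hybridization controls were all brighter at 6 d than at 2 d, and the median of their log2 differences was 0.59 for P. indica and 0.54 for mock. For P. indica over mock the same median was 0.10 (6 d) and 0.07 (2 d). Actin probe sets at the 3' and the 5' end had a signal ratio of 4.45 for P. indica and 3.69 for mock at 6 d, against 1.58 for P. indica and 1.77 for mock at 2 d. P. indica was therefore compared with mock within each time point. The actin ratio also differed within each pair, higher in exposed roots at 6 d and lower at 2 d, and its part in the ratios was not tested. In whole roots, less RNA per cell and fewer cells of a type cannot be told apart.

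The genes did not behave as one group. AT1G19530, AT4G39675 and CML38 had a higher signal in P. indica-exposed than in mock-treated roots at 6 d and a lower one at 2 d. AT1G33055 was higher in exposed roots, mainly at 6 d, and PDC2 and AT4G17260 differed little. At 6 d, 5 of the 6 genes were higher in exposed roots and 1 was lower, where 46.8% and 53% of all probe sets were, with a median log2 ratio of P. indica over mock of 0.47, while the median of all 14029 probe sets counted was -0.02. At 2 d, 2 were higher and 4 lower, where 44.1% and 55.6% of all were, with a median of -0.74 against -0.03 for all 14118 probe sets counted. The median of -0.74 rests in part on CML38, whose ratio is a bound, so it could be lower. The number more than 2-fold higher at 6 d was 1 of 6, where 0.456% of all probe sets were, and the number more than 2-fold lower at 2 d was 3 of 6, where 0.283% of all were. None of the 6 was more than 2-fold lower at 6 d or 2-fold higher at 2 d, where 0.0428% and 0.737% of all were, and none was more than 3-fold higher at either time point, where 0.107% of all were at 6 d and 0.29% at 2 d. AT1G19530 was the 1 gene of the 6 that was more than 3-fold lower at 2 d, where 0.0567% of all probe sets were. The genes were chosen with these ratios known, so the shares are not evidence about the group.

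**Figure D1:**
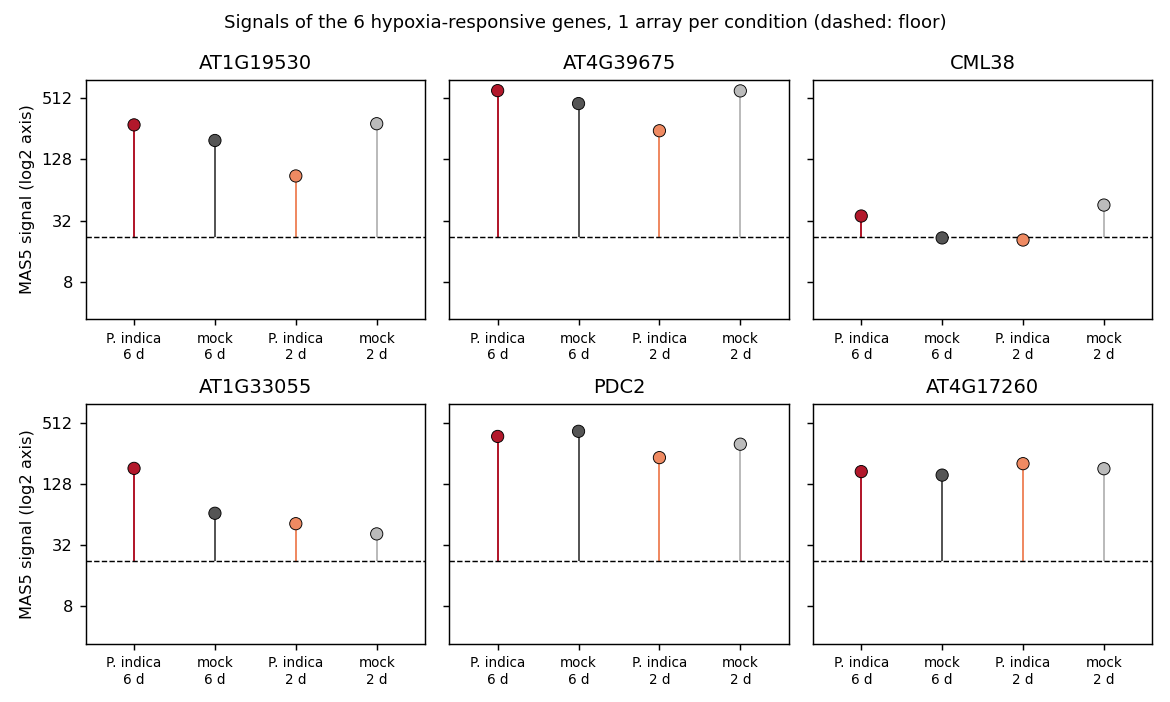
MAS5 signal (log2 axis) of each hypoxia-responsive gene on the P. indica 6 d, mock 6 d, P. indica 2 d and mock 2 d arrays, with 1 point per array and the floor of 22.2 as a dashed line. The points of AT1G19530 and AT4G39675 are lowest on the P. indica 2 d array, at 88.0 and 245.2. CML38 lies just under the floor on the mock 6 d and P. indica 2 d arrays, and at 35.5 (P. indica 6 d) and 45.5 (mock 2 d) on the others.

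AT1G19530 had the largest difference of the 6 genes. At 6 d its signal reached 280.1 in exposed and 196.6 in mock-treated roots, and at 2 d it reached 88.0 in exposed and 287.5 in mock-treated roots. The exposed roots at 2 d stand apart from the other 3 arrays, whose signals lie between 196.6 and 287.5. The ratio was 1.42-fold higher at 6 d and 3.27-fold lower at 2 d. The ratio at 2 d was the 6th lowest among the 14118 probe sets counted at 2 d, and the difference between the log2 ratios, 6 d minus 2 d, was 2.22, the 2nd highest of the 13538 probe sets with a ratio at 6 d as well as at 2 d.

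AT4G39675 had ratios of the same directions on a smaller scale. Exposed roots had 608.7 and mock-treated roots 454.0 at 6 d, and the signal reached 245.2 in exposed and 605.0 in mock-treated roots at 2 d. Again the exposed roots at 2 d had the lowest signal, and the exposed roots at 6 d and the mock-treated roots at 2 d were nearly equal. Exposed roots thus had 1.34-fold more signal than mock-treated roots at 6 d and 2.47-fold less at 2 d. The difference between its log2 ratios was 1.73, which ranked 7th from the top.

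CML38, the Ca2+ sensor, showed the same turn, but near the limit of detection. Its signal reached 35.5 in exposed and 21.6 in mock-treated roots at 6 d, and 20.6 in exposed and 45.5 in mock-treated roots at 2 d. The dimmer array of each pair lay under the floor, so the order of the signals 21.6 and 20.6 cannot be read. The exposed roots had at least 1.60-fold more signal at 6 d and at least 2.05-fold less at 2 d. When 32 was added to each signal and no floor was used, it had a log2 ratio of 0.33 (6 d) and of -0.56 (2 d). With a higher floor, at the 60th percentile (a signal of 61.4), it was not above the floor on any array. After loess within pairs its log2 ratio at 2 d was -0.98, and after quantile normalization it was also just short of 2-fold. Under each of these 4 settings, 2 rather than 3 of the 6 genes were more than 2-fold lower at 2 d.

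In AT1G33055 the larger difference was found at the later time point. Its signal reached 181.5 in exposed and 65.6 in mock-treated roots at 6 d, and 51.8 in exposed and 41.1 in mock-treated roots at 2 d. Here the exposed roots at 6 d stand above the other 3 arrays. The gene was 2.77-fold higher at 6 d, the 21st highest ratio among all probe sets counted, and 1.26-fold higher at 2 d. The log2 ratio at 6 d exceeded that at 2 d by 1.13.

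PDC2 and AT4G17260, of ethanol and lactate fermentation, differed by less than 2-fold at both time points. PDC2, which forms acetaldehyde from pyruvate, had a signal of 374.3 in exposed and 420.3 in mock-treated roots at 6 d, and of 231.6 in exposed and 313.9 in mock-treated roots at 2 d. It was thus lower in exposed roots at both time points, by 1.12-fold at 6 d and 1.36-fold at 2 d. The lactate dehydrogenase gene AT4G17260 had a signal of 168.6 in exposed and 155.8 in mock-treated roots at 6 d, and of 201.9 in exposed and 180.0 in mock-treated roots at 2 d. This gave ratios of 1.08-fold and 1.12-fold higher. The middle 95% of the log2 ratios of all probe sets ran from -0.51 to 0.56 at 6 d and from -0.58 to 0.60 at 2 d, and both genes lay within these ranges. The alcohol dehydrogenase gene ADH1 and the other pyruvate decarboxylase genes have no single-gene probe set in that annotation and were not analysed here.

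**Figure D2:**
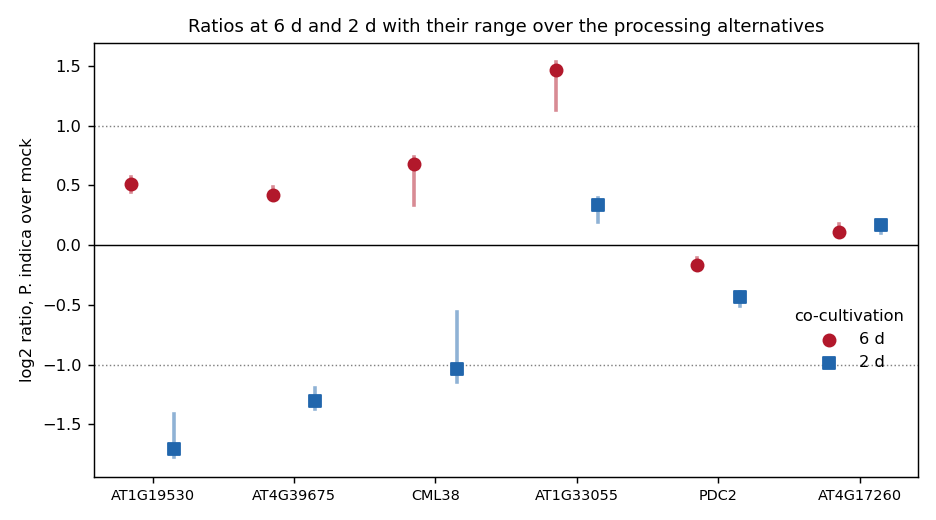
Log2 ratio of P. indica over mock for each gene at 6 d (circles) and 2 d (squares), with bars from the lowest to the highest value over the main setting and the processing alternatives, and dotted lines at 2-fold. AT1G19530, AT4G39675 and CML38 are above 0 at 6 d and below 0 at 2 d under each alternative that gave a value, while AT1G33055 is highest at 6 d with 1.47.

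Set side by side, 5 of the 6 genes had the higher ratio at 6 d, where 51% of all did, and AT4G17260 had a slightly lower one, by 0.05 on the log2 scale. The median difference between the log2 ratios, 6 d minus 2 d, was 1.42 over the 6 genes and 0.01 over all probe sets with both ratios. The 1.42 rests in part on CML38, whose ratios are bounds, so it could be higher. For 4 of the 6 this difference exceeded 1, which was the case for 0.657% of all probe sets. A signal more than 2-fold lower at 2 d and higher at 6 d was found for 15 of the 13538 probe sets, or 0.111%. Of these 15, 7 have a gene name, among them AT1G19530, AT4G39675 and CML38. The 38 probe sets more than 2-fold lower at 2 d and counted at 6 d as well thus held 15 (39.5%) with a higher signal at 6 d, not more than the 46.8% of all probe sets. After the floor, the signal was lowest on the P. indica 2 d array for AT1G19530, AT4G39675 and PDC2, 3 of the 6 genes, and for 28.1% of the 14609 probe sets above the floor on any array.

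**Figure D3:**
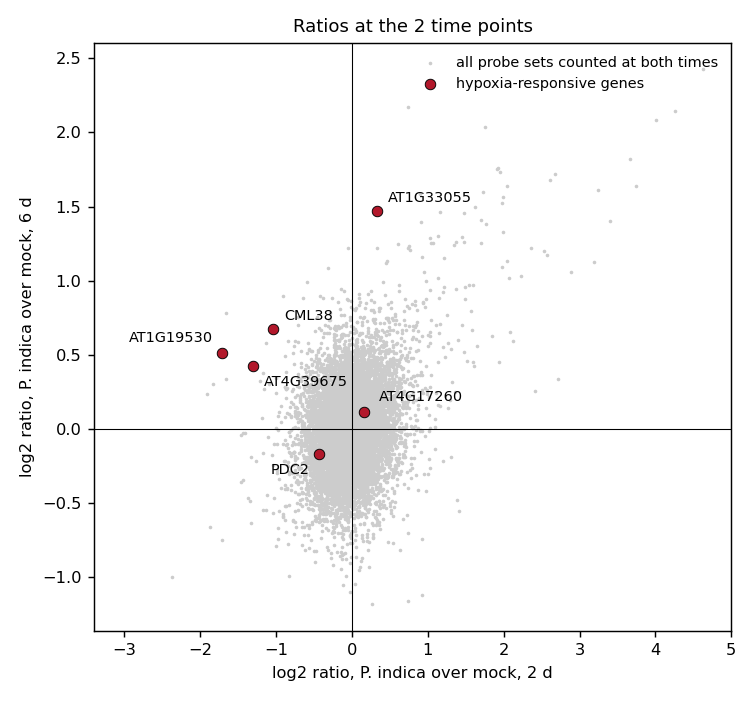
Log2 ratio of P. indica over mock at 2 d (horizontal axis) and at 6 d (vertical axis) for the 13538 probe sets with both ratios (grey) and the 6 hypoxia-responsive genes (red). AT1G19530, AT4G39675 and CML38 lie at the left edge of the cloud and above 0 at 6 d. AT1G33055 lies near its upper edge, and PDC2 and AT4G17260 lie inside it.

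The same signals can be read along time within each condition. These comparisons use the same 4 arrays as the ratios above and add no independent measurement. Over all probe sets counted, the median log2 ratio, 6 d over 2 d, stood at 0.01 (P. indica) and 0.003 (mock). The share of all probe sets with any rise from 2 d to 6 d was not counted. In exposed roots, 5 of the 6 genes had a higher signal at 6 d than at 2 d, 3 of them by more than 2-fold, where 2.02% of all probe sets were. AT1G33055 was 3.50-fold, AT1G19530 3.18-fold and AT4G39675 2.48-fold higher at 6 d, PDC2 was 1.62-fold and CML38 at least 1.60-fold higher. In mock-treated roots 2 genes were higher at 6 d, AT1G33055 by 1.60-fold and PDC2 by 1.34-fold. AT1G19530 was 1.46-fold, AT4G39675 1.33-fold and CML38 at least 2.05-fold lower in mock-treated roots at 6 d than at 2 d, so for these 3 genes the exposed and the mock-treated roots differed in opposite directions between the time points. CML38 was the only one of the 6 past 2-fold in mock-treated roots, where 2.35% of all probe sets were lower by that much. AT4G17260 was lower at 6 d in both conditions, by 1.20-fold in exposed and 1.16-fold in mock-treated roots. The hybridization controls and the actin ratio also differed between the time points, as given above, and their part in these differences was not tested.

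**Figure D4:**
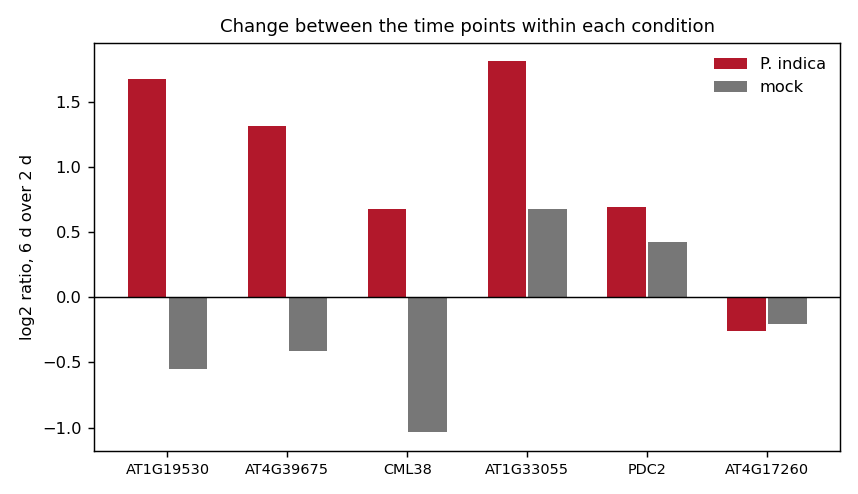
Log2 ratio of the signal at 6 d over that at 2 d for each gene in P. indica-exposed (red) and mock-treated (grey) roots, after the floor. The red bars of AT1G33055 and AT1G19530 reach 1.81 and 1.67, and the bars of AT1G19530, AT4G39675 and CML38 point up in exposed and down in mock-treated roots.

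Further genes of the low-oxygen response were taken from a list of 42 core hypoxia genes, of which 16 have a probe set of a single gene. At 6 d 11 of these were above the floor, 10 higher and 1 lower in exposed roots, and their log2 ratios had a median of 0.27, where the median of all probe sets was -0.02. At 2 d 9 were above the floor, 2 higher and 7 lower, with a median of -0.21 against -0.03 for all. The middle gene at both time points was AT3G27220, whose ratios are bounds. For the genes counted with the floor of 22.2, the medians can therefore lie from 0.27 to 0.29 at 6 d and from -0.22 to -0.21 at 2 d. With a floor at the 20th percentile the medians of the list were 0.39 at 6 d and -0.05 at 2 d. Over all probe sets 46.8% were higher at 6 d and 55.6% were lower at 2 d. Of the 9 genes counted at both time points, 8 had the higher ratio at 6 d, where 51% of all probe sets did. The list was chosen with earlier results of these data known, so its counts are a description and carry no test. One of the genes, AT4G10270, was more than 2-fold higher at 6 d, where 0.456% of all were, and none was more than 2-fold lower at 2 d, where 0.283% of all were.

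AT3G10020 came closest to AT1G19530 in direction, with a signal of 222.2 in exposed and 150.9 in mock-treated roots at 6 d, and 111.7 in exposed and 189.6 in mock-treated roots at 2 d. It was 1.47-fold higher at 6 d and 1.70-fold lower at 2 d. AT4G27450 had a signal of 384.1 in exposed and 240.7 in mock-treated roots at 6 d, and 160.1 in exposed and 187.1 in mock-treated roots at 2 d, with log2 ratios of 0.67 and -0.22. Both genes, like AT1G19530 and AT4G39675, were lowest in exposed roots at 2 d. AT4G10270 resembled AT1G33055: its signal reached 99.4 in exposed and 46.8 in mock-treated roots at 6 d, a 2.12-fold difference, and it was under the floor at 2 d with 18.0 in exposed and 16.2 in mock-treated roots. HRA1 (AT3G10040), a transcription factor that dampens the hypoxia response, had 30.2 in exposed and 21.4 in mock-treated roots at 6 d, at least 1.36-fold higher, and was under the floor at 2 d. AT1G72940 ran the other way, with a log2 ratio of 0.22 at 6 d that was lower than the 0.61 at 2 d. AT5G42200 had 0.00 at 6 d and -0.42 at 2 d, so its ratio was the higher at 6 d. AT3G27220 had 26.8 in exposed and 14.8 in mock-treated roots at 6 d, and 19.6 in exposed and 25.7 in mock-treated roots at 2 d. Exposed roots thus had at least 1.21-fold more signal (6 d) and at least 1.16-fold less (2 d). The remaining genes of the list above the floor had log2 ratios between -0.30 and 0.29.

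Other lists gave little to set beside these genes. Of 15 genes of oxygen sensing, 10 of fermentation and pyruvate use and 8 of carbon starvation, none has a probe set of a single gene here. Of 19 genes of sucrose use and glycolysis 2 could be measured: the cytosolic triosephosphate isomerase gene TPI showed 0.07 (6 d) and 0.18 (2 d) as log2 ratios, and the glyceraldehyde-3-phosphate dehydrogenase gene GAPC2 0.13 and 0.07. Of 8 calmodulin-like relatives of CML38, 6 have a probe set of a single gene and 2 were above the floor. The log2 ratios were 0.00 (6 d) and 0.43 (2 d) for CML42 and 0.16 and 0.60 for CML43, so neither shared the turn of CML38. CML39, the neighbour of CML38 in the annotation, was under the floor on all 4 arrays with signals between 1.2 and 6.8. The median over 3 reference genes was -0.06 (6 d) and 0.07 (2 d).

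**Figure D5:**
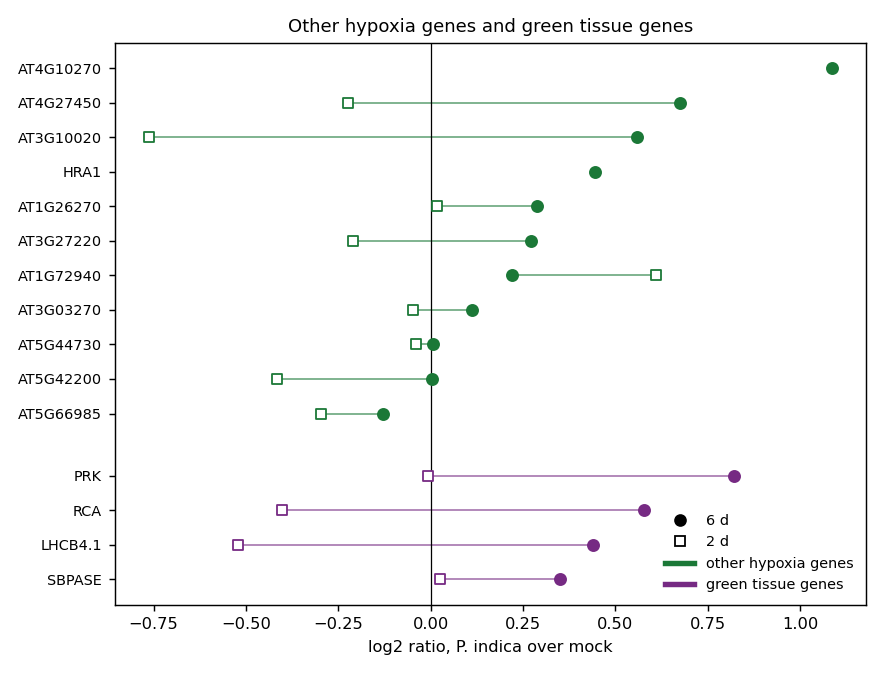
Log2 ratio of P. indica over mock at 6 d (filled circles) and 2 d (open squares) for the listed core hypoxia genes above the floor (green) and for the genes of green shoot tissue (purple); genes with no square were under the floor at 2 d. AT3G10020 lies at 0.56 at 6 d and -0.76 at 2 d, and RCA and LHCB4.1 of green tissue also lie above 0 at 6 d and below 0 at 2 d.

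Some genes of green shoot tissue had ratios of the same directions as AT1G19530, AT4G39675 and CML38. Of 15 listed, 4 have a probe set of a single gene and all 4 were above the floor. Their summed signal reached 802.3 in exposed and 559.1 in mock-treated roots at 6 d, and 316.5 in exposed and 425.4 in mock-treated roots at 2 d. As log2 ratios, the rubisco activase gene RCA had 0.58 (6 d) and -0.40 (2 d), the antenna protein gene LHCB4.1 had 0.44 and -0.52, and SBPASE had 0.35 and 0.03. The Calvin cycle gene PRK had 0.82 at 6 d, while at 2 d its signals were 16.3 in exposed roots, under the floor, and 22.3 in mock-treated roots, just above it, so the size of that difference cannot be read. RCA, LHCB4.1 and SBPASE were above the floor on all 4 arrays, SBPASE only just at 2 d, with 23.0 in exposed and 22.6 in mock-treated roots. Of the 9 listed genes of root tissue 2 could be measured. PYK10, the root beta-glucosidase, had signals of 4468.1 in exposed and 3863.8 in mock-treated roots at 6 d, and 3542.1 in exposed and 3098.4 in mock-treated roots at 2 d. The root hair expansin gene EXPA7 had 163.4 in exposed and 150.3 in mock-treated roots at 6 d, and 280.8 in exposed and 202.2 in mock-treated roots at 2 d. Both were higher in exposed roots at either time point. The part of green tissue in the ratios of AT1G19530, AT4G39675, CML38 and AT1G33055 was not tested.

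For the 4 genes whose log2 signals ranged over more than 1 across the arrays, the genes with the most similar profile were sought among 7829 named probe sets, by the Euclidean distance between the 4 centred log2 signals. The closest profile to AT1G19530 was that of AT4G39675, at a distance of 0.31. In the other direction AT1G19530 ranked 2nd for AT4G39675, after CCL (AT3G26740), a gene linked to the circadian clock, at 0.16. CCL had signals of 73.9 in exposed and 56.8 in mock-treated roots at 6 d, and 34.5 in exposed and 77.6 in mock-treated roots at 2 d. CCL also ranked 3rd for AT1G19530, after AT3G47800 at 0.43. AT2G23390 ranked 3rd for AT4G39675. For AT1G33055 the closest profiles were those of AT3G52070 at 0.48, AT4G10270 of the hypoxia list at 0.52 and AT3G12900 at 0.58. For CML38 they were AT4G33160, AT1G60080 and NERD (AT2G16485) at 0.32, 0.33 and 0.35, while AT1G19530 and AT4G39675 were at 0.89 and 0.68. These distances rest on 4 arrays each and were taken after the floor, which replaced signals of CML38 (mock 6 d and P. indica 2 d), AT4G10270 (both arrays at 2 d) and AT3G12900 (mock 2 d), so their order there is partly set by the floor.

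Of the genes next to the 6 loci in the TAIR10.1 annotation, 8 could be measured at 2 d, with log2 ratios between -0.12 and 0.54, so none was as low as AT1G19530, AT4G39675 or CML38. AT4G39670, beside AT4G39675, had 0.20 (6 d) and 0.54 (2 d) on the log2 scale, and AT4G39680 on its other side had -0.43 and 0.05. AT1G19540, beside AT1G19530, was higher in exposed roots at both time points, by 0.73 at 6 d and by at least 0.48 at 2 d on the log2 scale. AT1G76660, beside CML38, had 0.51 and -0.01. The neighbours of AT1G33055, AT1G33050 and NAC014, had 0.31 and 0.24 at 6 d, and -0.12 and -0.01 at 2 d.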

How the data were processed

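Root RNA of 4 conditions was hybridized to ATH1 arrays, 1 array each. The table deposited by the authors gives array intensities on a linear scale for 22810 probe sets, made with MAS5, without a version. The paper used ROBIN and MapMan. The range of the log2 75th percentiles of the arrays was 0.025, so the deposited scale was kept. From these values, 64 control probe sets were left out, signals under the floor of 22.2 were set to it, and log2 ratios were formed within each time point for probe sets with at least 1 array of the pair above the floor. More than 2-fold and, after the paper, more than 3-fold were the limits for counts. With 1 array per condition there is no spread between replicates, no test was made, and the number of arrays limits the precision.

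The platform annotation, joined through Entrez identifiers to TAIR10.1, gave 13484 probe sets a locus code; 503 name several genes and 8730 none. A gene with several probe sets was represented by the brightest.

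Named were the 6 genes, up to 6 measured genes per list by the largest ratio, and the 3 nearest profiles of each gene ranging over more than 1 on the log2 scale. AT3G27220, CML39 and the other neighbouring genes were chosen after their values were seen. The genes and lists were chosen with earlier results of these data known. Alternatives were other floors (20th and 60th percentile, none), 32 added to each signal, quantile normalization, loess within pairs (span 0.3), and centring on the median or on reference genes. Python 3.11.15, numpy 2.4.6, pandas 2.3.3, statsmodels 0.14.6 and matplotlib 3.10.9 were used.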

Additional observations from a re-analysis of the deposited data

Results flagged for a closer look

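Some of the named genes had differences in opposite directions at the 2 time points. Each was larger than the robust standard deviation of all log2 ratios at that time (0.22 at 6 d and 0.25 at 2 d). The share of all probe sets that meet this rule was not counted. With 1 array per condition the difference between the time points was not tested. The log2 ratios of P. indica over mock were 0.51 at 6 d and -1.71 at 2 d for AT1G19530, 0.42 and -1.30 for AT4G39675, and 0.68 and -1.04 for CML38, whose ratios are bounds. AT3G10020 of the hypoxia list had 0.56 and -0.76. The green tissue genes RCA and LHCB4.1 had 0.58 and -0.40, and 0.44 and -0.52. The others had been named for their likeness to AT1G19530, AT4G39675 or CML38, which favours these directions, so they add no independent result. CCL had 0.38 and -1.17, AT1G60080 0.30 and -1.10, AT4G33160 0.27 and -0.87, and NERD 0.51 and -0.60.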

How the results depend on the processing

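The log2 ratios of the 6 genes kept their sign at both time points under every alternative that gave a value. CML38 at both time points and AT1G33055 at 2 d were not above a floor at the 60th percentile. The difference between the ratios of AT4G17260 changed sign, from -0.05 to 0.08 when centred on reference genes. The median difference between the log2 ratios over the 6 genes, 1.42, became 1.00 when the floor was raised to the 60th percentile, where 4 genes remained, and 0.91 with 32 added to every signal. With 32 added, none of the 6 was more than 3-fold lower at 2 d, and AT1G19530 had a log2 ratio of -1.41. The other 85 values were medians, and counts of the 6 genes past 2-fold or 3-fold at each time point. They stayed within 1.5 times the main count or 1 robust standard deviation of all ratios. Over all probe sets, the number more than 2-fold higher at 6 d was 64, or 405, 116, 27 and 26 for floors at the 20th percentile, no floor, the 60th percentile and 32 added, and the number more than 2-fold lower was 6, or 245, 35, 0 and 0. At 2 d, 104 were higher, or 330, 159, 49 and 58, and 40 were lower, or 192, 63, 15 and 12. In mock-treated roots CML38 was no longer more than 2-fold lower at 6 d than at 2 d after quantile normalization, with 32 added or with the higher floor, alternatives chosen for this comparison after seeing the data. No paired analysis was possible because each comparison within a time point has 1 array per condition.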
